A study of Mus musculus with 32 samples.

Results

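The genes described here encode the circulating factors of complement and blood coagulation. The list holds 33 genes, chosen by name: C2, C3, C4b, Hc, C8a, C8b, C8g, C9, Cfb, Cfi, Cfp, Masp1, Masp2, Mbl1 and Mbl2 for complement, and F2, F5, F7, F9, F10, F11, F12, F13b, Fga, Fgb, Fgg, Plg, Proc, Pros1, Kng1, Klkb1, Vtn and Cpb2 for coagulation and fibrinolysis. All 33 were found among the 51510 genes of the table. The libraries are RNA-seq of liver, heart, skeletal muscle and brown fat (BAT). All mice were males of the C57BL/6J strain, either wild-type (WT) or from a line with a knockout of Smim30, whose libraries are labelled Mut. There were 8 groups of 4 libraries, and the submitters state that 4 individual mice gave each tissue, which with 8 libraries per tissue is read here as 4 of each genotype. No source used here says whether the 4 tissues came from the same mice. How the knockout allele was made, and whether it acts in the whole body, is not given in the sources used here. Levels are in TPM, a length-scaled share of the library, which relates a transcript's reads to its length and to all RNA of the library, so that levels of different genes can be set side by side.

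Complement is a cascade of plasma proteases that marks microbes and damaged cells. It starts from lectins (mannose-binding lectins with their proteases), from antibody, or by slow turnover of C3, and it ends in a pore of terminal components in the target membrane. Coagulation is a parallel protease cascade in which the contact factors and factors VII, IX and X lead to thrombin, which turns fibrinogen into fibrin, while plasmin dissolves the clot. Hepatocytes are the main source of most of these proteins, and macrophages, endothelium and fat make some of them locally.

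Several measurements of the libraries touch all results below. Smim30 RNA, listed in the annotation as 2610001J05Rik, was present in every library labelled Mut, at 17.3 TPM or more, against 18.6 to 37.6 TPM in WT. Its groups were apart in heart (32.7 to 37.6 TPM in WT, 17.8 to 27.4 TPM in Mut) and muscle (32.9 to 35.7 and 24.3 to 27.3 TPM) and overlapped in liver and BAT. Over all genes the groups were apart for 7.53% in heart and 4.49% in muscle. Lower mean log2 levels in Mut were found for 9700 of 12019 genes in heart and 3881 of 11771 in muscle. The RNA level therefore does not settle the genotype labels. Alb (albumin) read 47799.5 to 68477.5 TPM in liver and 482 to 814 TPM in the other tissues. Ucp1, the uncoupling protein of brown fat, read 2444 to 3565 TPM in BAT and 43.7 to 69.6 TPM elsewhere. Myh6, the myosin of heart muscle, read 2954 to 4997 TPM in heart and 55.4 to 103 TPM elsewhere, and Acta1, the actin of skeletal muscle, 15922 to 22049 TPM in muscle and 243 to 604 TPM elsewhere. Each marker was thus far higher in its own tissue than in any library of the others.

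In WT liver the 33 genes together took 1.53% to 1.86% of all TPM, and in the other WT tissues 0.0230% to 0.0299%. The highest were the fibrinogen chains Fga (1944 ± 288 TPM; SD, n = 4) and Fgg (1832 ± 273 TPM), the adhesion protein vitronectin, Vtn (1653 ± 225 TPM), and C3, the hub of complement (1529 ± 264 TPM). They were followed by the kininogen gene Kng1, the source of bradykinin, at 1340.2 ± 49.0 TPM, prothrombin (F2, 1208 ± 70.9 TPM), Fgb (1046 ± 138 TPM) and plasminogen (Plg, 1040.1 ± 82.3 TPM). In all, 8 genes averaged at least 1000 TPM, 17 lay between 100 and 1000 TPM, and 8 lay under 100 TPM. The lowest were Masp1 (37.6 ± 2.67 TPM), a protease of the lectin pathway, F11 (32.9 ± 9.79 TPM), the anticoagulant cofactor protein S (Pros1, 28.7 ± 4.82 TPM) and properdin (Cfp, 8.25 ± 5.42 TPM), the stabiliser of the alternative pathway's convertase. Of the 32 neighbouring pairs in this order, only 4 were separated in every WT library: Plg from Cfb, C9 from C8b, C2 from Masp1, and Pros1 from Cfp. The plot of liver levels by library shows the order and the spread.

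**Figure D1:**
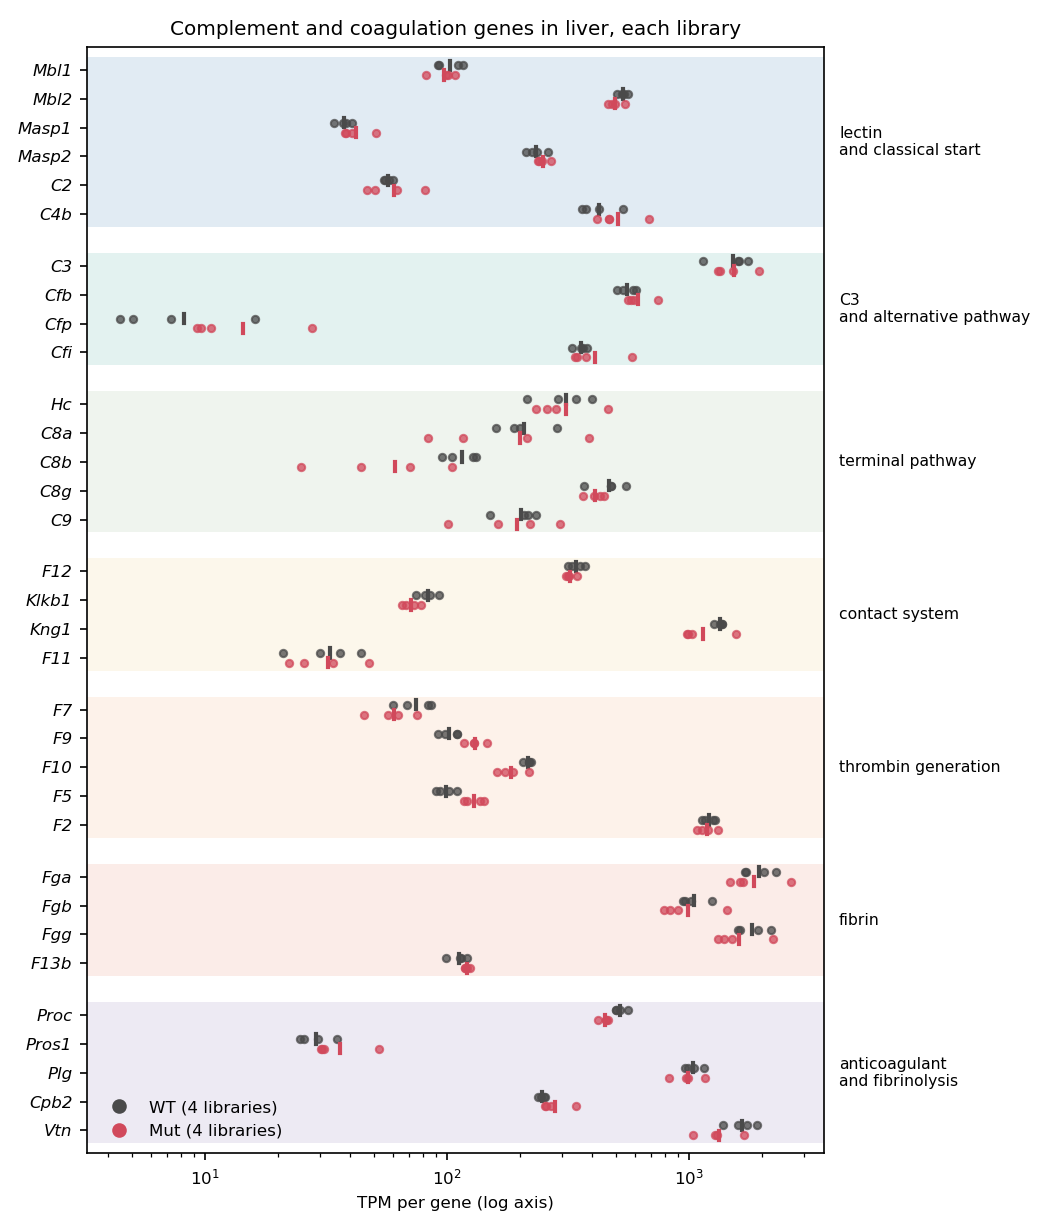
TPM per gene (log axis) of the 33 genes in each of the 4 WT (grey) and 4 Mut (red) liver libraries, in 7 groups by role; short vertical lines are group means. Fga is highest and Cfp lowest, and 1 Mut library lies to the right of the other Mut libraries for many genes.

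The difference between liver and each other tissue was tested over the 16 WT libraries with limma, a linear model with moderated variances, on log2(TPM + 1). A gene was called when its Benjamini-Hochberg adjusted p was under 0.05. Liver was higher than BAT for 32 of the 33 genes (36.5% of all 14310 genes tested were called higher in liver), and higher than heart (44.9% of all genes) and muscle (42% of all genes) for 33 of 33. The median differences were 5.99, 6.05 and 5.72 on the log2 scale. The exception was Cfp against BAT, where the difference was 0.52 (SE 0.35, adjusted p = 0.196). Against heart the adjusted p of Cfp was 0.0498 (log2 difference 0.79), and against muscle 0.00409 (1.23).

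Outside the liver most of the genes sat at about the same share of their liver level. Over the 33 genes the median share was 1.09% in WT BAT, 1.06% in WT heart and 1.38% in WT muscle, and 1.14%, 1.14% and 1.42% in the Mut tissues. A panel of 12 hepatocyte markers (Alb, Apoa1, Ttr and others) showed nearly the same shares: 0.860% to 1.10% in WT BAT, 0.835% to 1.14% in WT heart and 1.03% to 1.47% in WT muscle. Within these ranges lay 15 of the 33 genes in BAT, 19 in heart and 20 in muscle. Thus Fga averaged 0.960% of its liver level in WT BAT, 1.04% in WT heart and 1.28% in WT muscle, and F2 read 1.09%, 1.07% and 1.33%. What places hepatocyte RNA in these libraries was not tested, and Ucp1, Myh6 and Acta1 outside their tissues, given above, showed low levels of the same kind.

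Of the 33 genes, 8 lay above the marker range in all 6 non-liver groups: C2, C3, C4b, C8g, Cfp, Masp1, Pros1 and Vtn. Cfb did so in 5 of the 6, all but Mut heart, and 13 genes did so in none. Cfp stood highest relative to liver, at 65.9% of its liver level in WT BAT, 47.2% in WT heart and 30.9% in WT muscle. Protein S followed, with Pros1 at 25.4%, 28.0% and 16.0%. Its WT libraries read 6.02, 6.34, 8.49 and 8.34 TPM in BAT, 6.51, 7.12, 8.64 and 9.89 TPM in heart, and 3.72, 5.79, 4.20 and 4.71 TPM in muscle, while a gene at the marker share would have read 0.284, 0.294 and 0.379 TPM. BAT and heart overlapped for Pros1, and all 4 heart libraries lay above all 4 muscle libraries.

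C3 read 66.2, 80.4, 72.0 and 63.8 TPM in WT BAT, 48.7, 44.9, 44.0 and 64.6 TPM in WT heart, and 37.9, 28.1, 27.0 and 33.4 TPM in WT muscle. The marker share would have given 15.1, 15.7 and 20.2 TPM. C3 thus ran from BAT down to muscle, with all heart libraries above all muscle libraries and 1 heart library inside the BAT range. C4b, which joins C2 in the classical convertase, averaged 15.5 ± 3.18 TPM in WT BAT, 9.87 ± 2.73 TPM in heart and 9.12 ± 0.874 TPM in muscle, or 3.65%, 2.33% and 2.15% of liver. C2 averaged 2.32 ± 0.883, 1.49 ± 0.839 and 1.75 ± 0.118 TPM, and factor B (Cfb), the protease of the alternative pathway, 13.1 ± 2.29, 7.38 ± 0.223 and 9.94 ± 0.870 TPM. C8g averaged 11.3 ± 1.19, 5.99 ± 0.497 and 7.82 ± 0.549 TPM, with BAT above the other tissues in every library. Vtn was at 1.25%, 1.53% and 1.64% of liver, not far above the markers.

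Masp1 differed most between the non-liver tissues. It read 4.70, 6.53, 4.46 and 5.69 TPM in WT heart, which is 14.2% of liver, against 1.46 ± 0.131 TPM (3.87%) in WT muscle and 0.395 to 0.615 TPM (1.33% on average) in WT BAT. The 3 tissues did not overlap. The plot of shares shows these genes to the right of the marker band.

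**Figure D2:**
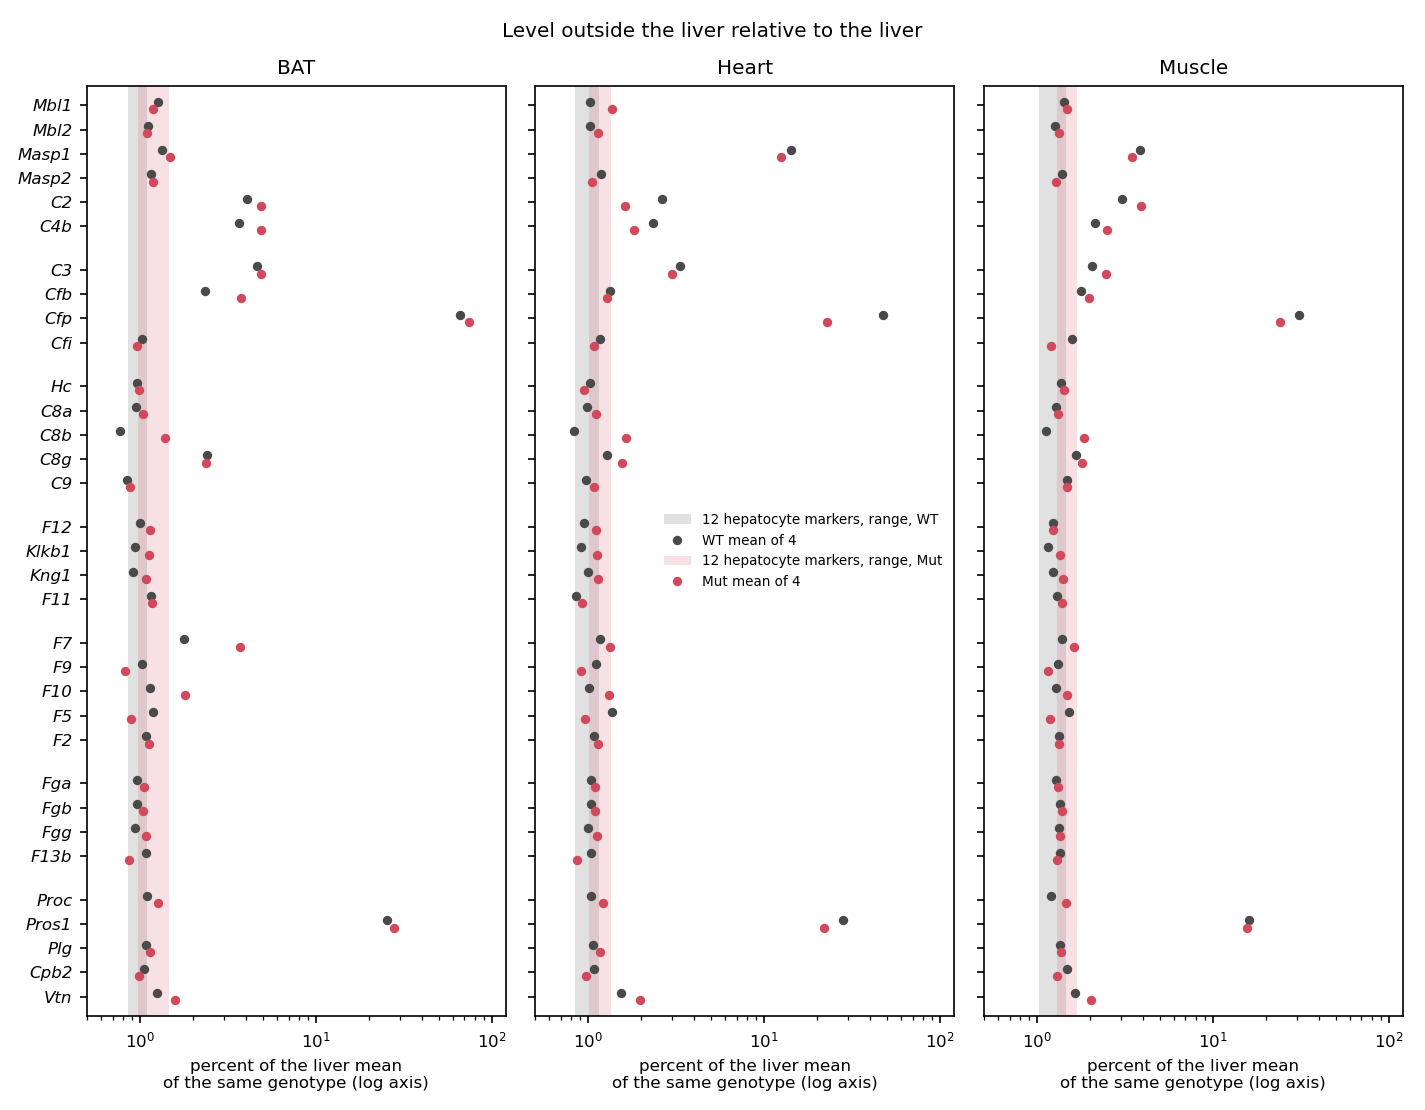
Mean level of each gene in BAT, heart and muscle as a percent of the liver mean of the same genotype (log axis), for WT (grey) and Mut (red); shaded bands are the ranges of 12 hepatocyte markers. Most genes lie in or beside the bands, while Cfp, Pros1, Masp1, C2, C3 and C4b lie to the right of them.

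The heart signal of Masp1 (chromosome 16, 23449417 to 23520815, GRCm38) came mainly from a different transcript than the liver signal. In WT liver Masp1-201 (704 codons) held 69.3% ± 3.92 of the gene's TPM, Masp1-203 (733 codons) 29.3% ± 3.82 and Masp1-204 (385 codons) 0.750% ± 0.249 (SD, n = 4). In WT heart Masp1-204 held 76.6% ± 3.03, which is 4.09 TPM, and the other transcripts 14.1% ± 1.92 (Masp1-203) and 8.44% ± 1.67 (Masp1-201). In WT muscle Masp1-204 held 35.7% ± 4.20. Masp1 averaged only 5.35 TPM in WT heart and 1.46 TPM in WT muscle, under the 10 TPM asked of a gene in the count of transcript shares below. Mut liver (0.739% ± 0.607), Mut heart (78.3% ± 4.14) and Mut muscle (32.9% ± 8.89) lay in the same order. The gene is known to give proteases and, from a shorter transcript, a product without the protease domain. The coding sequences of the 3 transcripts are the same over the first 1105 bases and then part, so the sequences on both sides of that point are shown to let the short form be told from the long ones. Capitals mark the bases after the parting; the capitals of Masp1-204 run to its stop codon, and Masp1-203 has the same letters here as Masp1-201. The sequences are those of GENCODE M21 (GRCm38), written as DNA on the coding strand.
Masp1-204: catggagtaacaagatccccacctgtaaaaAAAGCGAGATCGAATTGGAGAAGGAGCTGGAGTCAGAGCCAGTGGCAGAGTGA
Masp1-201: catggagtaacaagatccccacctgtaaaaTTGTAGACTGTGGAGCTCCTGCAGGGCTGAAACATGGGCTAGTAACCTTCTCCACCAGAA

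The comparison of Mut with WT asked whether these genes differ between the libraries of the 2 labelled genotypes in any tissue. limma was run within each tissue over the 8 libraries, for genes that averaged 1 TPM or more. None of the 33 genes tested in liver was called, where 4.16% of all 11994 genes were (3.78% higher in Mut and 0.384% lower). None of 29 tested was called in BAT (0% of 12150 genes), none of 29 in heart (0.15% of 12019) and none of 31 in muscle (0.0085% of 11771). The genes left out for a mean under 1 TPM were C8b, F11, Klkb1 and Masp1 in BAT, C8b, F11, F7 and Klkb1 in heart, and F11 and Klkb1 in muscle. Of all 33 genes, 15 in WT BAT, 19 in WT heart and 20 in WT muscle lay within the hepatocyte marker range given above. For those, the result outside the liver describes RNA at the share of hepatocyte markers, whose source was not tested. At an unadjusted p under 0.05 there were 6 of 33 in liver, or 18.2% (25.9% of all genes), 5 of 29 in BAT, or 17.2% (19.5%), 0 in heart (11.6%) and 3 of 31 in muscle, or 9.7% (7.76%). In liver 13 genes had a higher mean log2 level in Mut and 20 a lower one, with a median of -0.07 against 0.10 over all genes. The groups did not overlap for 4 of 33 genes, F5, F9 and Cpb2 upward and Proc downward (16.4% of all genes). Leaving out Mut library 1 turned the median to 0.06. In bulk tissue, fewer hepatocytes and less RNA per hepatocyte cannot be told apart, and 11 of the 12 hepatocyte markers also had lower means in Mut liver (median -0.24, none called).

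**Figure D3:**
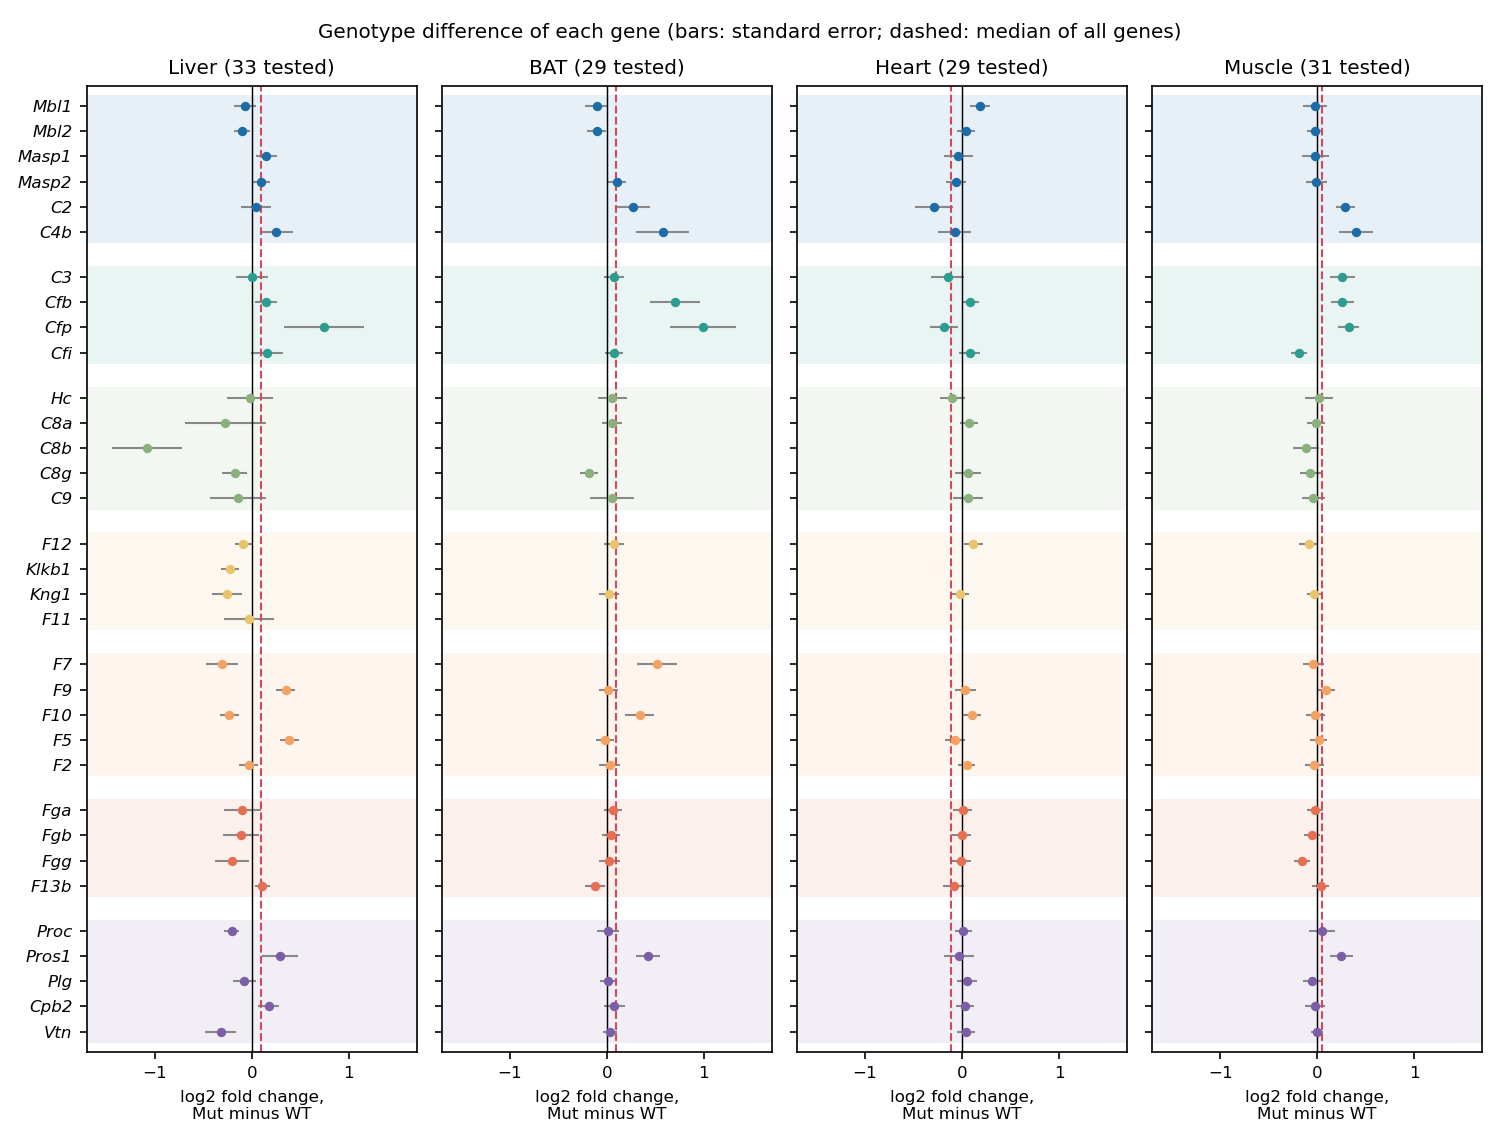
Log2 fold change of each gene, Mut minus WT, in the 4 tissues (points; bars are standard errors; colours are role groups; the dashed line is the median of all genes of the tissue). No point was called in any tissue; F5 and F9 lie highest above 0 relative to their error in liver, and C8b lies lowest.

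Among the factors that lead to thrombin, F5 and F9 came closest to the threshold. Factor V (F5, chromosome 1, 164151838 to 164220277), the cofactor of factor Xa, read 110.0, 93.8, 89.9 and 103 TPM in the WT liver libraries and 143, 118, 121 and 138 TPM in the Mut libraries. Every Mut library lay above every WT library, and the log2 fold change was 0.39 (SE 0.10, adjusted p = 0.0545). Factor IX (F9, chromosome X, 59999464 to 60030759), the protease absent in haemophilia B, read 110.1, 98.3, 91.8 and 110.3 TPM in WT and 129, 129.5, 118 and 147 TPM in Mut. Here too the groups did not overlap (log2 fold change 0.35, SE 0.10, adjusted p = 0.0682). Factors VII and X, whose genes lie 1498 bases apart on chromosome 8, had lower means in Mut liver. F10 read 219, 206, 223 and 218 TPM in WT and 173, 161, 188 and 218 TPM in Mut, so that only Mut library 4 reached the WT range (log2 fold change -0.23, SE 0.10, adjusted p = 0.178). F7 read 59.8, 68.4, 83.4 and 86.5 TPM in WT and 45.5, 63.2, 57.4 and 75.3 TPM in Mut, with overlap (-0.31, SE 0.16, adjusted p = 0.269). F2 averaged 1208 ± 70.9 TPM in WT, and the Mut mean was 1184 ± 104 TPM.

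The terminal complement genes varied widely between Mut livers. All 5 had a lower mean log2 level in Mut (median -0.18), and none was called. C8b (chromosome 4, 104766317 to 104804548), the beta chain of the component that starts the membrane pore, read 133, 95.3, 105 and 128 TPM in WT and 24.9, 44.3, 70.3 and 105 TPM in Mut. Mut libraries 1 to 3 lay below all WT libraries and Mut library 4 lay inside the WT range (log2 fold change -1.08, SE 0.36, adjusted p = 0.109). Without Mut library 4 the fold change was -1.40 and passed the threshold (adjusted p = 0.0484), as did 293 of all 11915 genes in that fit; without Mut library 1 it was -0.72 (adjusted p = 0.198). C8a (chromosome 4, 104815679 to 104876398), the alpha chain, lies 11130 bases from C8b on the other strand and read 284, 160.2, 201 and 189.7 TPM in WT and 84.0, 116, 214 and 388 TPM in Mut. C9, the subunit that lines the pore, read 217, 151, 235 and 209 TPM in WT and 101, 162, 221 and 295 TPM in Mut. Hc, which encodes C5, the source of the chemotactic fragment, read 397, 215, 341 and 287 TPM in WT and 234, 259, 284 and 464 TPM in Mut. In these 4 genes Mut library 1 was the lowest and Mut library 4 the highest of the Mut libraries, while WT library 2 was the lowest of the WT libraries for all 4 and WT library 1 the highest for all but C9. C8g, the gamma chain, read 369.5, 477, 552 and 479 TPM in WT and 364, 446, 428 and 407 TPM in Mut, a narrower range.

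**Figure D4:**
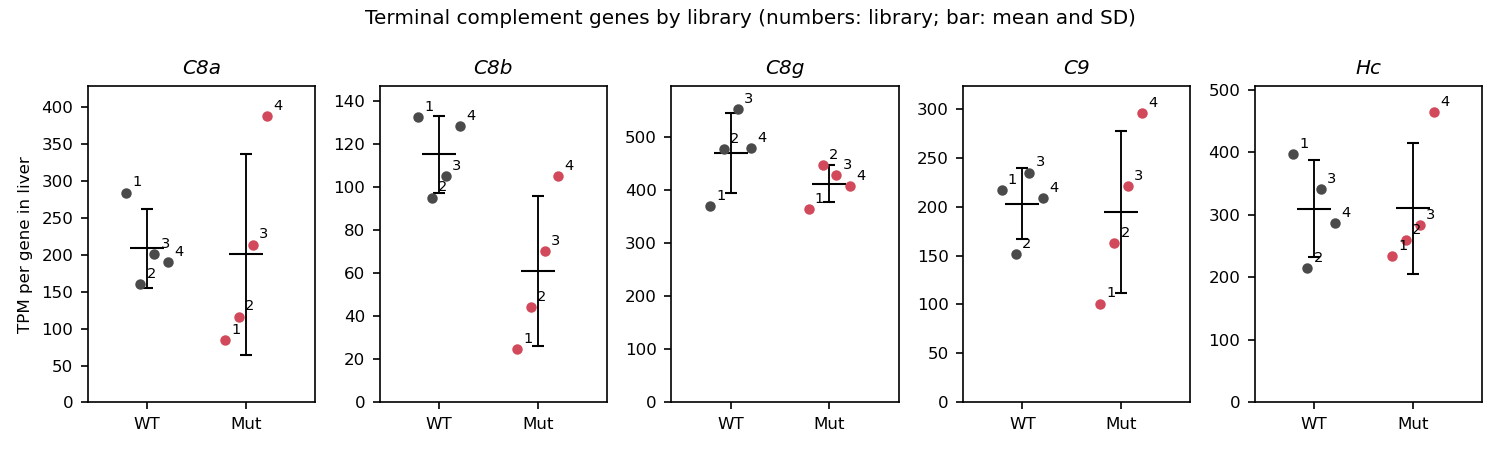
TPM of the 5 terminal complement genes in each WT (grey) and Mut (red) liver library, numbered by library; bars show the mean and SD of 4. Mut library 1 is lowest and Mut library 4 highest of the Mut libraries for C8a, C8b, C9 and Hc.

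The coefficient of variation of the terminal genes had a median of 17.8% over the WT livers and 42.6% over the Mut livers. Over all 33 genes these medians were 9.29% and 18.9%, and over all genes of at least 1 TPM 12.6% and 11.5%. Mut library 4 was the highest of the Mut livers for 29 of the 33 genes, and Mut library 1 the lowest for 17. Among WT livers library 4 was the highest for 16. The sum of the 33 genes was 13692, 14797, 15281 and 20767 TPM in Mut libraries 1 to 4 and 16542, 15278, 17901 and 18575 TPM in WT. The sum of 11 macrophage markers moved with library 4 in both genotypes: it was 47.2, 61.8, 67.3 and 155 TPM in WT and 126, 108, 119 and 330.1 TPM in Mut. The hepatocyte marker sum was 104824, 124664, 125149 and 121415 TPM in WT and 106272, 105489, 97875 and 118522 TPM in Mut, highest in library 4 in Mut but not in WT. The part of these markers in the spread was not tested.

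The start of RefSeq's Fgb, C8a and C8b transcripts and that of the GENCODE genes coincide, and the 250 bases before it are shown. Fgb was taken because it holds matches of both motifs marked below, as does its neighbour Fga. C8a and C8b were taken because they varied widely between Mut livers (coefficients of variation of 68.2% and 56.8%). That of Cfp lay between them at 62.9%. These windows were chosen after motif matches had been seen. A window was found for 25 of the 33 genes in the RefSeq promoter table (GRCm38.p6). The letters GTTAAT, part of the site of the hepatocyte factor HNF1, were present on either strand in 8 of the 25 windows (32%; C8a, C8b, Cfp, F13b, Fga, Fgb, Hc and Vtn), against 6.43% of 32851 windows of all genes. TTGCNNAA, a form of the C/EBP site, was present in 7 of 25 (28%; 9.56% of all), TTCNNNGAA, a form of the STAT site, in 6 (24%; 7.02% of all), and TATAAA in 3 (12%; 12.4% of all). The HNF4 form CAAAGGTCA was present in 1, F7 (0.426% of all), and CAAAGTCCA in none (0.384% of all). No motif contains another, and a match is a description of the sequence only. Capitals mark GTTAAT and TTGCNNAA on either strand; the last base of each window is the base before the start.
Fgb (chr3:83049864-83050113, minus strand): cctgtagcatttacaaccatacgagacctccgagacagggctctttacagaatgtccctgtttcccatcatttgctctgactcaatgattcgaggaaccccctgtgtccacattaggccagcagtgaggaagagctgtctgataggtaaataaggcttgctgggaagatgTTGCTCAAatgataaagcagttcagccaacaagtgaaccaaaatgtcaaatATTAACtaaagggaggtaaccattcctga
C8a (chr4:104876399-104876648, minus strand): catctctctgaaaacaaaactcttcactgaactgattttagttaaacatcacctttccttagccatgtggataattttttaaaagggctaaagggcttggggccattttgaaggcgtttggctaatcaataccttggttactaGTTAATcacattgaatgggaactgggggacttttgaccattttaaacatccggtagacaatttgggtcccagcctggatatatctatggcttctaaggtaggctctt
C8b (chr4:104766067-104766316, plus strand): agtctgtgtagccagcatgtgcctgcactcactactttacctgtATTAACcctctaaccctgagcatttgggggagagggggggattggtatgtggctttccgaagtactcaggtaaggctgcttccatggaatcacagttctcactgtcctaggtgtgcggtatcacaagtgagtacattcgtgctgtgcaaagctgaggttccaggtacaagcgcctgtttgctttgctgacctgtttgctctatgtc

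The 4 contact factors also had lower means in Mut liver (median -0.16), without a call. Plasma prekallikrein (Klkb1), which cleaves kininogen, read 93.3, 80.9, 84.9 and 74.8 TPM in WT and 65.1, 67.8, 73.0 and 78.5 TPM in Mut, with overlap through Mut library 4 (log2 fold change -0.23, SE 0.09, adjusted p = 0.159). Kng1 read 1374, 1269, 1347 and 1371 TPM in WT and 996, 1029.9, 980.4 and 1565 TPM in Mut: Mut libraries 1 to 3 lay below all WT libraries and Mut library 4 above them (-0.26, SE 0.15, adjusted p = 0.312). F12, the factor that starts the contact reaction, had means of 343 ± 25.2 (WT) and 323 ± 16.1 TPM (Mut), and F11 32.9 ± 9.79 and 32.4 ± 11.3 TPM. Reads of Kng1 may be shared with its paralog Kng2, and Klkb1 shares exons on its own strand with the annotated gene Gm45753.

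Of the anticoagulant and fibrinolysis genes, Proc, which encodes protein C, read 519.8, 502, 558 and 502 TPM in WT liver and 422, 456, 456 and 465 TPM in Mut. All Mut libraries lay below all WT libraries (log2 fold change -0.21, SE 0.08, adjusted p = 0.138). Its cofactor Pros1 read 29.3, 25.6, 24.7 and 35.3 TPM in WT and 31.1, 30.3, 30.4 and 52.6 TPM in Mut (0.29, adjusted p = 0.345), so that the groups overlapped. Cpb2, the carboxypeptidase that slows fibrinolysis, read 251, 239, 245 and 254 TPM in WT and 254, 269, 258 and 342 TPM in Mut; the groups did not overlap, although the lowest Mut and highest WT library nearly met (0.17, SE 0.10, adjusted p = 0.324). Vtn (chromosome 11, 78499091 to 78502324) read 1591, 1379, 1911 and 1733 TPM in WT and 1044, 1312, 1284 and 1688 TPM in Mut, with overlap (-0.32, SE 0.16, adjusted p = 0.233). Plg had means of 1040.1 ± 82.3 (WT) and 991 ± 141 TPM (Mut).

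Of the 4 fibrin genes 3 had lower means in Mut liver, but the spread was wider than the difference. The genes Fgg, Fga and Fgb lie in 1 cluster on chromosome 3 (83007724 to 83049863). Fga had means of 1944 ± 288 (WT) and 1852 ± 530.5 TPM (Mut), Fgb 1046 ± 138 and 992 ± 298 TPM, and Fgg 1832 ± 273 and 1613 ± 415 TPM. Mut library 4 held the highest level of all 8 livers for each of the 3 chains, at 2638, 1434 and 2225 TPM. F13b, the carrier subunit of the enzyme that cross-links fibrin, had means of 112 ± 8.97 (WT) and 121 ± 2.39 TPM (Mut).

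Fgg showed a difference between transcripts that its total did not. Fgg-201 held 51.5%, 57.2%, 57.8% and 53.3% of the gene's TPM in the WT livers and 42.4%, 47.9%, 46.1% and 45.6% in the Mut livers, and Fgg-202 held the rest. The means were 55.0% ± 3.03 and 45.5% ± 2.30 (SD, n = 4), and every Mut library lay below every WT library. In BAT the means were 57.0% ± 4.84 and 55.1% ± 4.63, in heart 53.2% ± 8.16 and 50.7% ± 2.31, and in muscle 48.9% ± 4.22 and 54.2% ± 4.42, with overlap in each. In these tissues Fgg lay within the hepatocyte marker range in both genotypes. Its shares there describe RNA whose source was not tested. Transcript shares are given as a description, without a test. Of 42 transcripts of these genes that held on average between 5% and 95% of a gene of at least 10 TPM in liver, 7 did not overlap between genotypes, where 7.34% of 12494 such transcripts did so over all genes. These 7 came from 5 of 18 genes, and the shares within a gene depend on each other, as Fgg-201 and Fgg-202 together make up the gene. Beside the 2 of Fgg they were Cfb-206 (11.3% ± 3.92 in WT, 21.4% ± 2.87 in Mut), Kng1-203, Masp2-204, which has no annotated coding sequence, and Proc-204 and Proc-206. In BAT 1 of 14 did not overlap, C3-201 (4.45% of all), in heart 0 of 6 (3.69%) and in muscle 0 of 11 (3.55%). These counts include transcripts of Fgg and Kng1, which both lay within the hepatocyte marker range outside the liver. Fgg-201 and Fgg-202 have 436 and 443 codons, share the first 1297 bases of their coding sequence and differ only at its end, the end that is known to bind platelets in the common form of the gamma chain. That end is shown for both, with the differing bases up to the stop codon in capitals.
Fgg-201: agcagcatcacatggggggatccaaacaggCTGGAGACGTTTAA
Fgg-202: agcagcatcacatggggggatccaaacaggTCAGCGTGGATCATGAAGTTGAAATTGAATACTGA
The sequences are those of GENCODE M21, whose version numbers of these transcripts are lower by 1 than those in the deposited table. Only the last 14 coding bases of Fgg-201 set it apart from Fgg-202 within the coding sequence, beside the exons that follow.

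**Figure D5:**
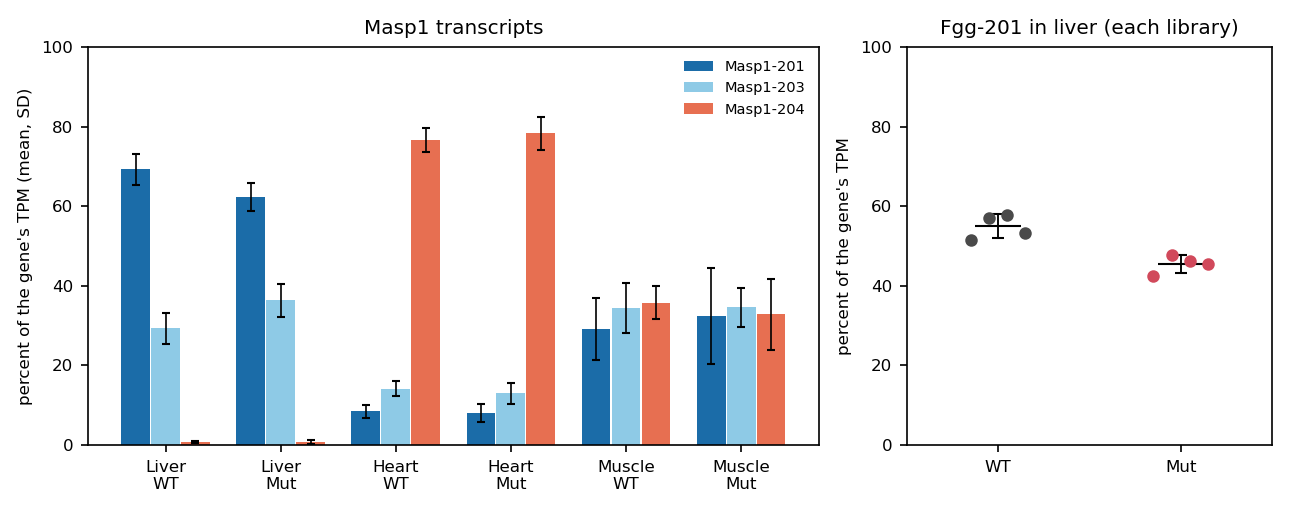
Left, share of Masp1 TPM on 3 transcripts in liver, heart and muscle (bars: mean; error bars: SD; n = 4); right, share of Fgg TPM on Fgg-201 in each liver library (bars: mean and SD). Masp1-204 holds 76.6% in WT heart and 0.750% in WT liver, and the Mut livers lie below the WT livers for Fgg-201.

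The genes around C3 had higher mean log2 levels in Mut liver for 4 of 4, with no call. Their median was 0.15, against 0.10 over all genes, of which 8277 of 11994 had higher means. C3 had means of 1529 ± 264 (WT) and 1531 ± 289 TPM (Mut; log2 fold change 0.00). Cfp (chromosome X, 20925454 to 20931555) read 4.49, 5.06, 7.28 and 16.2 TPM in WT and 10.6, 9.27, 9.69 and 27.9 TPM in Mut (0.74, SE 0.41, adjusted p = 0.286). Library 4 was the highest of both genotypes, as for the macrophage markers above; macrophages are a known source of properdin, and their part in the difference was not tested. Cfb had means of 557 ± 47.1 (WT) and 619 ± 84.4 TPM (Mut), and factor I (Cfi), which inactivates C3b, 358 ± 21.6 and 409.7 ± 116 TPM. Among the genes that start the lectin and classical pathways, Mbl2 was highest (534 ± 21.9 TPM in WT, 497 ± 35.7 TPM in Mut), followed by C4b (425 ± 76.8 and 509 ± 119 TPM), Masp2 (233 ± 20.7 and 249.5 ± 14.1 TPM), Mbl1 (103 ± 12.4 and 97.9 ± 11.3 TPM), C2 (57.1 ± 2.13 and 60.3 ± 15.5 TPM) and Masp1 (37.6 ± 2.67 and 42.1 ± 6.15 TPM). Of the Masp2 TPM in WT liver, Masp2-202 (185 codons) held 61.5% ± 6.69 and Masp2-201 (685 codons) 32.4% ± 6.03 (SD, n = 4). In Mut liver they held 57.1% ± 1.54 and 33.7% ± 1.32. C2 and Cfb lie 85 bases apart on chromosome 17 and share exons with the annotated gene Gm20547, and C4b has the near-identical copy C4a, so their levels are uncertain.

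In BAT 24 of the 29 genes tested had higher means in Mut (median 0.05, against 0.09 over all genes). Pros1 was the 1 gene whose groups did not overlap (9.41% of all genes): it read 6.02, 6.34, 8.49 and 8.34 TPM in WT and 10.8, 9.72, 9.00 and 10.8 TPM in Mut (log2 fold change 0.42, SE 0.12, adjusted p = 0.146). Cfp read 2.36, 3.04, 9.66 and 6.70 TPM in WT and 13.9, 8.91, 7.93 and 12.0 TPM in Mut (0.99, SE 0.34, adjusted p = 0.178). Cfb read 9.99, 14.3, 15.2 and 13.0 TPM in WT and 32.0, 15.5, 14.6 and 30.7 TPM in Mut (0.70, adjusted p = 0.191), and C4b 10.7, 16.8, 17.5 and 16.9 TPM in WT and 36.6, 17.0, 15.2 and 30.3 TPM in Mut (0.58, adjusted p = 0.281). Mut libraries 1 and 4 were the high ones for Cfb and C4b, and WT libraries 1 and 2 the low ones for Cfp. F7 read 0.759, 0.972, 2.54 and 1.06 TPM in WT and 2.85, 2.03, 1.97 and 2.07 TPM in Mut (0.52, adjusted p = 0.214). The macrophage marker sum was 47.4, 77.2, 276 and 159.7 TPM in the WT libraries and 306, 256, 266 and 325 TPM in the Mut libraries, and 7 of 7 fibroblast markers did not overlap, upward. Of 5 red blood cell markers 5 were higher and 4 did not overlap, with sums of 2096 to 3864 TPM in WT and 4081 to 6220 TPM in Mut. The part of these markers was not tested. Without WT library 3, whose macrophage sum was the highest of WT, Pros1 (adjusted p = 0.0443), Cfp (0.0363) and F7 (0.0217) passed the threshold in limma; the same omission raised the count over all genes from 0 to 819 of 12159.

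In muscle C2 and Cfp did not overlap between genotypes (4.49% of all genes). C2 read 1.88, 1.72, 1.79 and 1.60 TPM in WT and 2.31, 1.98, 2.93 and 2.26 TPM in Mut (0.29, SE 0.10), and Cfp 2.05, 2.77, 2.42 and 2.98 TPM in WT and 3.64, 2.99, 3.14 and 4.00 TPM in Mut (0.32, SE 0.11); the adjusted p of both was 0.554. The macrophage marker sum was 43.4 to 56.1 TPM in WT muscle and 64.4 to 82.5 TPM in Mut muscle. The fibroblast marker sum was 334 to 403 TPM in WT and 432 to 485 TPM in Mut, with 7 of 7 markers higher and 4 not overlapping; the part of either was not tested. In heart no gene's groups were apart (7.53% of all genes), and the smallest adjusted p was 0.479, for Mbl1 (0.18). Masp1, which stands out in heart, had means of 5.35 ± 0.951 (WT) and 5.21 ± 1.11 TPM (Mut; log2 fold change -0.04; 0.08 with median-ratio scaling).

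Whether the genotype difference varied between tissues was tested with an interaction term over the 32 libraries in limma, for genes that averaged 1 TPM or more in each tissue. The fit treats the tissues as separate animals, and p-values may differ if they share mice. Of the 33 genes 28 entered, and F5 was the 1 called by the F test of the interaction (adjusted p = 0.0385; 5.87% of 10109 genes). Its difference in liver exceeded that in BAT by 0.40 (SE 0.11, adjusted p = 0.0487; 3.07% of genes) and that in heart by 0.46 (SE 0.11, adjusted p = 0.0199; 6.61%), and that in muscle by 0.37 (adjusted p = 0.139; 0.544%). Outside the liver F5 read only 0.979 to 1.75 TPM in the 24 libraries, 0.892% to 1.53% of liver, where a pseudocount of 1 compresses any change. With a pseudocount of 0.1 the F test gave adjusted p = 0.102. F10 differed between liver and BAT (-0.57, SE 0.15, adjusted p = 0.0373), since its mean was lower in Mut liver and higher in Mut BAT (1.90, 2.00, 3.51 and 2.50 TPM in WT, 3.93, 3.45, 2.81 and 3.20 TPM in Mut), although its F test gave adjusted p = 0.0763. For F9 the F test gave adjusted p = 0.152. The F5 call ended when any of 10 libraries was left out, with adjusted p up to 0.101 (without liver Mut library 1).

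Other genes of the same systems, listed by function, were tested in the same fits. Of the 32 complement regulators and receptors 21 were tested in liver, 18 had higher means in Mut (median 0.31, against 0.10 over all genes), 11 had an unadjusted limma p under 0.05 (25.9% of all liver genes) and none was called. Of the coagulation and fibrinolysis regulators 17 of 24 had higher means (median 0.16), and 2 rose. Over all 11994 liver genes 8277 had higher means in Mut, and 3.78% were called higher. Anxa2, a cell-surface protein that gathers plasminogen and its activator, rose from 13.2 ± 2.82 to 33.2 ± 7.82 TPM (log2 fold change 1.26, SE 0.17, adjusted p = 0.0189). Plgrkt, a plasminogen receptor, rose from 12.7 ± 1.21 to 17.9 ± 2.09 TPM (0.46, SE 0.10, adjusted p = 0.0415). The vitamin K cycle completes factors II, VII, IX and X and proteins C and S. Of its 5 genes 4 had higher means (median 0.31) and 2 rose, against the same 3.78%. All 5, so also the 1 with a lower mean, had an unadjusted limma p under 0.05 (25.9% of all liver genes). In the interaction fit the difference of Vkorc1 in liver lay below that in BAT (-0.47) and muscle (-0.53) and above that in heart (0.13), each without a call. Ggcx, the carboxylase itself, rose from 30.0 ± 1.71 to 37.5 ± 1.52 TPM (0.31, SE 0.07, adjusted p = 0.0434), and Nqo1, a quinone reductase, from 7.54 ± 0.840 to 12.6 ± 3.07 TPM (0.65, adjusted p = 0.0469). Of the acute phase genes 18 of 23 had higher means (median 0.19) and 3 rose, where 3.78% of all genes did: Orm3 (3.27 ± 1.06 to 12.2 ± 2.74 TPM, 1.64, adjusted p = 0.0114), Lcn2 (14.7 ± 9.21 to 55.6 ± 16.7 TPM, 1.96, adjusted p = 0.0250) and Saa3 (7.39 ± 2.06 to 18.8 ± 6.82 TPM, 1.22, adjusted p = 0.0353). With 1 liver library left out at a time, Orm3 stayed called in 8 of 8 fits, Anxa2 in 7, Lcn2 in 4, Saa3 in 2, Nqo1 in 1, and Ggcx and Plgrkt in 0 (adjusted p up to 0.109). Of the liver transcription factors 8 of 17 had higher means (median -0.03), 2 had an unadjusted p under 0.05 and none was called in limma. In the same livers 1 of 9 macrophage markers tested (Cd68) and 3 of 7 fibroblast markers (Col1a1, Col1a2 and Col3a1) rose, and their part in these rises was not tested. None of these 5 lists held a called gene in BAT, heart or muscle in the fits within each tissue. In the interaction fit the F test called Cd59a, Serping1 and C1ra of the complement regulators (adjusted p = 0.00983, 0.0484 and 0.0485). It also called Anxa2, Tfpi, S100a10 and Tfpi2 of the coagulation regulators (0.0136, 0.0161, 0.0250 and 0.0480) and Vkorc1 of the vitamin K cycle (0.0311). Over all 10109 genes 5.87% were called.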

How the data were processed

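RNA of 32 libraries was measured, 4 for each of 2 genotypes in 4 tissues, grouped by title. Per the labels' protocols, libraries were strand-specific. The deposited values are TPM per transcript, which the authors computed by Salmon, per the submitters' processing notes; no source used here gives its version, transcriptome or build. TPM keeps no read totals, so depth is unknown and precision was read from replicates. The 147493 transcripts were matched to GENCODE M21 (GRCm38) without versions, which matched 136081 (92.26%), and summed per gene; unmatched ones held 0.451% to 0.896% of TPM.

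Genes that averaged 1 TPM or more were tested with limma 3.58.1 in R 4.3.3 (mean-variance trend) on log2(TPM + 1), two-sided, with Benjamini-Hochberg adjustment over all genes tested. That mean was taken over the 8 libraries of the tissue for the genotype difference. It had to hold in each tissue for the interaction, and in at least 1 WT group for the comparison of WT tissues. Fold changes are on that scale, which understates those of low genes. The 33 genes, the other lists and the tests were chosen with earlier results of these data known. Named in full were genes called in any tissue, the 10 largest liver fold changes, genes of at least 1 TPM outside the liver, and the highest gene of each role; of other lists, called genes. The test was checked on simulated data. Of genes altered by 0.5 on the log2 scale it recovered 37% in BAT, 41.1% in heart, 47.5% in liver and 50% in muscle. For a change of 1 it recovered 83.3% to 89.0%. The altered genes were drawn from all genes tested. The 33 genes had a wider spread in Mut liver (median coefficient of variation 18.9%, against 11.5% over all genes). A gene without a call may thus still differ, and not only by a small amount: C8b in liver (-1.08) and Cfp in BAT (0.99) were not called. Alternatives were another pseudocount, filters and scalings, no trend, array weights, a block for the replicate number, a single fit of all libraries, other thresholds, protein-coding transcripts only, and leaving out libraries. Tables and figures used Python 3.11.15, pandas 2.3.3 and matplotlib 3.10.9.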

Additional observations from a re-analysis of the deposited data

Results flagged for a closer look

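Among 120 groups of 4 libraries examined for these genes, 8 held a library far from the other 3 by Dixon's test, which chance gives in about 1 of 20 groups. All 33 genes were examined in liver. In the other tissues only Cfb and the 8 genes above the marker range in all 6 groups were examined, a choice made from the results. Genes measured in the same library are not independent, so the counts cannot be set strictly against that rate. Of the 8, 5 were Mut liver library 4: Cfp at 27.9 TPM, Cfi at 582 TPM, Kng1 at 1565 TPM, Fga at 2638 TPM and Pros1 at 52.6 TPM, each above the other Mut livers. The others were C2 in WT BAT library 2 (3.64 TPM, high), C4b in WT BAT library 1 (10.7 TPM, low) and C4b in WT heart library 4 (14.0 TPM, high). Without Mut library 4 the number of genes of the list called in liver was 1 (C8b) instead of 0, beside 293 of all 11915 genes.

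The interaction of tissue and genotype was called for F5 (limma F test, adjusted p = 0.0385). Its difference in liver exceeded that in BAT by 0.40 and that in heart by 0.46 on the log2 scale. Outside the liver its group means were only 1.16 to 1.55 TPM, where a pseudocount of 1 compresses any change. With a pseudocount of 0.1 the F test called 0 of the genes of the list. F10 differed by -0.57 between liver and BAT (limma, adjusted p = 0.0373), although its F test gave adjusted p = 0.0763. That difference was called in 30 of 41 alternatives, with adjusted p up to 0.0853. In WT BAT F10 averaged 2.48 TPM. The F5 call was lost when any of 10 libraries was left out (BAT WT 4, Mut 3 and Mut 4; heart WT 2, WT 4 and Mut 2; liver WT 2, WT 3, Mut 1 and Mut 4), with adjusted p between 0.0512 and 0.101.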

How the results depend on the processing

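Of the fold changes of named genes, that of Masp1 in heart changed sign: -0.04 became 0.078 with median-ratio scaling, 0.12 when TPM was rescaled without mitochondrial and the 10 most abundant genes, and -0.13 to 0.074 with a library left out. The 33 genes called in liver were 2 with array weights or at an adjusted p under 0.1 (F5 and F9), 5 with a single fit of all libraries, 1 with protein-coding transcripts only (F5) and 0 to 1 with a library left out. In BAT they were 2 with array weights (Pros1 and Cfp), 2 with the single fit (Cfb and F7) and 0 to 3 with a library left out. In heart and muscle they stayed at 0 under all alternatives run. All genes called in BAT (0) were 7 without a filter, 1 with a minimum of 5 TPM, at an adjusted p under 0.1 or with protein-coding transcripts only, 6 with median-ratio scaling, 648 with array weights, 848 with the single fit and 0 to 819 with a library left out, 819 being without WT library 3. In heart (18) they were 0 without a filter, 10 with 5 TPM, 11 with median-ratio scaling, 44 with array weights, 166 with the single fit and 7 to 20 with a library left out. In liver (499) they were 11 without a filter, 310 with median-ratio scaling, 1902 with the single fit, 1453 at an adjusted p under 0.1 and 22 to 390 with a library left out. In muscle (1) they were 2 without a filter, at an adjusted p under 0.1 or with protein-coding transcripts only, 7 with the single fit and 0 to 8 with a library left out. The interaction calls (593 genes, 1 of the 33) were 355 and 0 with 5 TPM, 1901 and 3 with array weights, 1421 and 2 at an adjusted p under 0.1, and 254 to 1030 and 0 to 2 with a library left out; of the 33 there were 0 with a pseudocount of 0.1 or rescaled and 2 with median-ratio scaling. In WT, 32 to 33 of the 33 genes were higher in liver than in BAT or heart, and 33 than in muscle, with a library left out. The cause of these changes was not tested.

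With the replicate number as a block, 126 genes were called in liver, 9 in heart and 0 in muscle, none of the 33. No label says that equal numbers mark shared animals or batches, correlations of same-numbered deviations ran from -0.25 to 0.14, and 1 of 16 numbers matched its own best. Median-ratio scaling moved the median over all liver genes from 0.10 to -0.02, and that of the 33 genes to -0.21 in liver (24 lower) and 0.13 in heart. Alternatives chosen after seeing the data were liver without both libraries 4 (117 genes called, 0 of the 33) and BAT without WT libraries 1 and 2 (0 and 0).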
